A study of Mus musculus with 2 samples.

Results

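Long stretches of the mouse autosomes without any called peak of the linker histone H1t were described with the genes they hold. A stretch was a gap of at least 200 kb between the end of 1 peak and the start of the next on chromosomes 1 to 19, with at least 1 whole gene of the GENCODE M21 annotation (mm10) inside. Of the 72419 gaps between neighbouring autosomal peaks, 1143 were at least 200 kb long and 1016 of these held a whole gene. These 1016 stretches made up 1.4% of all gaps. The stretches were selected on peak positions and on holding a gene, which left out 127 gaps. Lengths, numbers, distances to peaks and gene densities inside are therefore descriptions and carry no test.

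The study mapped H1t by chromatin immunoprecipitation and sequencing in spermatogenic cells from testes of ICR mice aged 6 weeks, with a rabbit polyclonal H1t antibody made in the submitters' laboratory and enzymatic fragmentation of the chromatin. It held 1 H1t library with a peak list and 1 input library, made without antibody, which was not analysed here. Nothing was replicated, so no p-value is given, and the peak list gives no depth, so a gap says that no peak was called there and not that H1t was absent. The library holds the chromatin of all spermatogenic stages together, so a stretch cannot be assigned to a cell type.

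Linker histones bind the nucleosome where DNA enters and leaves it, together with the DNA between nucleosomes, and help chromatin to fold. H1t is the linker histone variant of male germ cells and appears during meiotic prophase. A called peak marks a place where immunoprecipitated fragments pile up beyond what the peak caller takes as background, so a histone spread evenly over a region would leave no peak.

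The promoters of 4 genes inside stretches are printed as examples that differ in sequence, from 250 bases before to 50 bases after the start, from RefSeq on GRCm38.p6 (the mm10 assembly). CG dinucleotides, the sites of DNA methylation in mammals, are in capitals. The letters searched were CG, which reads the same on both strands. Of 31396 autosomal promoters of this length, 94.8% hold at least 1 CG, and the median number is 7.
Prdm9 (chr17:15564305-15564604, minus strand): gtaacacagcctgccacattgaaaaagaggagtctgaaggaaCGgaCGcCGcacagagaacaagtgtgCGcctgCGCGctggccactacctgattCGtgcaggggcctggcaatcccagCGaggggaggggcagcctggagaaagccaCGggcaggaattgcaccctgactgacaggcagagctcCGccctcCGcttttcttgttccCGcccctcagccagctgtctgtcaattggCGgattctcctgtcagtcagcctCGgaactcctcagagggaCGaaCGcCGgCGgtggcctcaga
Sycp3 (chr10:88459337-88459636, plus strand): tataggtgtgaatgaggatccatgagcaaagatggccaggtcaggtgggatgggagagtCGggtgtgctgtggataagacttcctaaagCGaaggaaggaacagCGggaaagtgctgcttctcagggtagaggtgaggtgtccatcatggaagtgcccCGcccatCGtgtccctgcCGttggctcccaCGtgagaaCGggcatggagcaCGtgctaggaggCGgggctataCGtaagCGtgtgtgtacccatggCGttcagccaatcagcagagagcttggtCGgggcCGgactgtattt
Tnp1 (chr1:73015850-73016149, minus strand): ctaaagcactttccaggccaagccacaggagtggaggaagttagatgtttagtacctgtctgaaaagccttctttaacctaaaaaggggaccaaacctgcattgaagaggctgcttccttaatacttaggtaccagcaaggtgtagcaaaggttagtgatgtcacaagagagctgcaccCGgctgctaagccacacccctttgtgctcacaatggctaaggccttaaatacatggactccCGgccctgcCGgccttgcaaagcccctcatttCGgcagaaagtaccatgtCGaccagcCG
Olfr1056 (chr2:86356388-86356687, minus strand): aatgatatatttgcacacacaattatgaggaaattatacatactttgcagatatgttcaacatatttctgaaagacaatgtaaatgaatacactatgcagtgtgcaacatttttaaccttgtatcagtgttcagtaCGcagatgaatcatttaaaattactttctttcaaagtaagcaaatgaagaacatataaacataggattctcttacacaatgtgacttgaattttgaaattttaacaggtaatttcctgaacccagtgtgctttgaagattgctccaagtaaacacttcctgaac
Prdm9, the histone methyltransferase that places meiotic recombination sites, had 18 CG in this window, and 30.3% of promoters have at least that many. Sycp3, a protein of the synaptonemal complex, had 15, and 35.2% of promoters have at least that many. Tnp1, the first transition protein of spermatids, had 6 (56.8% with at least that many). Olfr1056, an odorant receptor in the stretch with the most coding genes, had 1, the fewest of these 4. CG-rich and CG-poor promoters were thus both found inside stretches, where by the rule no peak was called.

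Several stretches held microRNA clusters, and the mature sequences of 9 conserved microRNAs inside them are printed from RefSeq, with the seed (bases 2 to 8, which pair with target RNAs) in capitals. Of 157 genes with Mir symbols and the microRNA type inside stretches, 79 were matched to a mature sequence in that table.
mmu-miR-100-5p (chr9:41531437-41531458, plus strand): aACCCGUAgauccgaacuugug
mmu-miR-125b-5p (chr9:41581940-41581961, plus strand): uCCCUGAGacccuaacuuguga
mmu-let-7a-5p (chr13:48538239-48538260, minus strand): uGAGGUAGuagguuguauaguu
mmu-let-7d-5p (chr13:48536078-48536099, minus strand): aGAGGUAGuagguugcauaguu
mmu-let-7f-5p (chr13:48537889-48537910, minus strand): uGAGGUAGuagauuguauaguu
mmu-miR-27b-3p (chr13:63300760-63300780, plus strand): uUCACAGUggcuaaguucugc
mmu-miR-24-3p (chr13:63301251-63301272, plus strand): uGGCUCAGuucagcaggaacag
mmu-miR-181a-5p (chr1:137966468-137966490, plus strand): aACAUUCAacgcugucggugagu
mmu-miR-181b-5p (chr1:137966650-137966673, plus strand): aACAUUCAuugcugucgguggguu
The microRNAs let-7a, let-7d and let-7f, regulators of the timing of differentiation, shared the seed GAGGUAG, and miR-181a and miR-181b shared ACAUUCA. The other 4 had seeds of their own.

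The stretches were mostly short of 300 kb. Their median length was 249 kb, with quartiles of 219 and 298 kb, against a median of 13513 bp over all gaps. There were 514 stretches of 200 to 250 kb (50.6%), 254 of 250 to 300 kb (25%), 187 of 300 to 400 kb (18.4%) and 38 of 400 to 500 kb (3.74%). A further 23 (2.26%) were 500 kb or longer. Together the stretches covered 277 Mb, which was 11.5% of the sequence between the first and last peaks of the autosomes. With so many members near the minimum, the number depends on it.

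The members just inside the minimum were 200066, 200389 and 200415 bp long. The shortest, on chromosome 3, held Amy2a1, a pancreatic amylase gene. The next, on chromosome 2, had no whole coding gene. The third, on chromosome 5, held Tpst1, a tyrosylprotein sulfotransferase gene, with Rabgef1, Crcp and Kctd7. Just outside were gaps of 199948 bp on chromosome 10, 199914 bp on chromosome 17 with the DNA helicase gene Ddx11, and 199904 bp on chromosome 9.

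**Figure D1:**
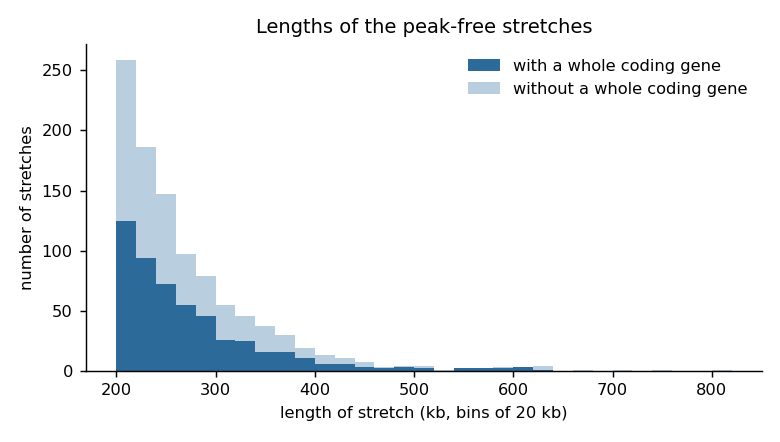
Number of stretches (vertical axis) by length in kb (horizontal axis, bins of 20 kb), divided by whether a stretch held a whole protein-coding gene. Of the 1016 stretches, 518 held one and 498 did not, and 23 reached 500 kb or more.

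The longest stretch, at chromosome 9, 41157976 to 41971361 (813.4 kb), held 23 genes and no whole coding gene. Inside it lay the microRNA genes Mir100, Mirlet7a-2 and Mir125b-1, a conserved cluster whose members are transcribed from a shared long RNA in mammals. Its edges reached only slightly into Ubash3b and Sorl1. The peaks that ended it had scores of 72.72 and 71.02, close to the autosomal median of 73.82 (the authors give 1 score to each peak). A single peak of 744 bp divided it from the next stretch of 405.4 kb, which held Sc5d, an enzyme of cholesterol synthesis. Joined over that peak, the pair ran for 1219.6 kb.

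Of the 10 longest stretches, 7 held no whole coding gene, and in 4 of these at least 48.7% of the sequence was the body of 1 coding gene that did not lie wholly inside. A stretch of 748.5 kb on chromosome 9 lay 91.4% inside Ntm, and 1 of 669 kb on the same chromosome lay 48.7% inside Cadm1; both genes encode immunoglobulin-type adhesion proteins. On chromosome 6 a stretch of 709.3 kb lay 78.3% inside Magi1, a scaffold protein of cell junctions. On chromosome 11 a stretch of 626 kb lay wholly inside Tenm2, a teneurin adhesion receptor of neurons. Of the others without a whole coding gene, 2 were 637.9 kb on chromosome 14, with no coding gene body at all, and 623.7 kb on chromosome 7, which reached into Tshz3, a zinc finger regulator of development.

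The 3 longest stretches with whole coding genes were of 629.4 kb on chromosome 4, 619.6 kb on chromosome 2 at 73750398, and 610.3 kb on chromosome 2 at 62214398. The stretch on chromosome 4 held Zfp462, a zinc finger gene, and Rad23b, a gene of nucleotide excision repair, and reached into Klf4, a pluripotency factor gene. The first on chromosome 2 held the transcription factor gene Atf2 and the ATP synthase subunit gene Atp5g3. The second held Dpp4 and Fap, related serine proteases, Ifih1, a sensor of viral RNA, Gca, a calcium-binding protein gene, and Gcg, the glucagon gene. In Gcg the start site lay 269 kb from the nearest peak, and in Fap 251 kb.

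Protein-coding gene bodies covered 50.5% of the sequence of the stretches, against 41.3% of the autosomal span. There were 112 stretches that lay entirely within the body of 1 coding gene, spread over 103 genes. Of these genes 9 held 2 stretches each, led by Macrod2, an ADP-ribose hydrolase gene (817 kb in sum), Auts2, a neurodevelopmental gene (667 kb), and Ptprg, a receptor tyrosine phosphatase gene (593 kb). Among the others were Kcnip4, a potassium channel interacting protein gene (541 kb), Nrxn3, a neurexin gene of synapses (523 kb), and the cadherin gene Cdh18 (426 kb). At the other extreme, 185 stretches had no coding gene body in any part.

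Start sites were sparser inside stretches than over the autosomes. Start sites of coding genes numbered 6.11 per Mb inside stretches and 8.66 per Mb over the autosomal span. Start sites of genes of all types numbered 20.1 per Mb inside and 21.3 per Mb over the span. In all, 1691 coding start sites (8.13%) lay inside. The stretches thus held more coding gene body and fewer coding starts per Mb than the autosomes as a whole. They were chosen to hold a gene, which may raise the gene content inside, and coverage over all gaps of at least 200 kb was not computed.

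Genes lying wholly inside numbered 5172 of 51229 on the autosomes (10.1%), and protein-coding genes 1376 of 20807 (6.61%). These shares are the background for every gene group below. A stretch held a median of 4 genes and a mean of 5.09. In 161 stretches (15.8%) there was 1 gene, 118 stretches had 10 or more, and 83 had 5 or more coding genes. Coding genes were 26.6% of the genes inside (exact binomial 95% interval 25.4 to 27.8, counting error only), against 40.6% of all autosomal genes. Genes within a stretch are neighbours and not independent, so these intervals are narrower than the true uncertainty.

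Each of the non-coding types in the plot of gene types lay inside more often than coding genes. Of 5209 lincRNA genes, which encode long RNAs from between coding genes, 743 lay inside (14.3%, 13.3 to 15.2), in 392 stretches. Genes of the type TEC, unspliced transcripts of unclear status, had 546 of 3204 inside (17%), and antisense genes 354 of 2913 (12.2%). Processed pseudogenes, retrotransposed copies of spliced RNAs, had 903 of 8924 inside (10.1%), the share of all genes. Unprocessed pseudogenes, left by duplication, had 169 of 1789 (9.45%). Long RNAs from bidirectional promoters, whose starts adjoin those of coding genes, had 14 of 190 (7.37%). The lincRNA share was above that of all genes under every alternative except the demand for a whole coding gene in each stretch, where it was 5.87% against 6.68% for all genes.

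**Figure D2:**
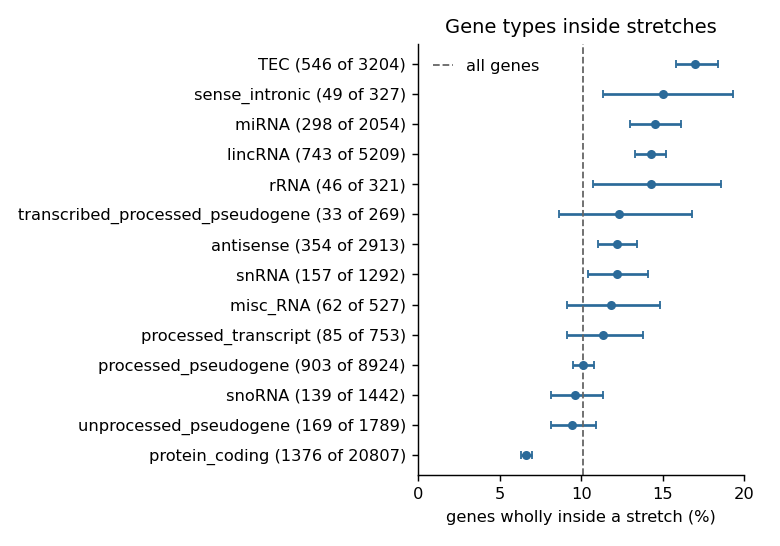
Share of the autosomal genes of each annotated type with at least 250 genes lying wholly inside a stretch (horizontal axis, %), with exact binomial 95% intervals and the counts beside each type name. The dashed line marks all genes at 10.1%. The coding share of 6.61% lies left of it, and lincRNA (14.3%) and TEC (17%) genes lie right of it.

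Gene length bears on this count, because a gene longer than a stretch cannot lie inside it. Of coding genes of 200 kb or more, 16 of 953 (1.68%) lay wholly inside, while 10.3% had their start site inside. Coding genes of 50 to 100 kb had 8.61% wholly inside, and those under 5 kb had 5.53%. Start sites of coding genes were inside in 5.8% of genes under 5 kb and 13.7% of genes of 100 to 200 kb, and the shares rose with length between these classes. For genes of other types under 5 kb, 12.4% lay wholly inside. Within this shortest class, too, the share of coding genes was the lower.

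The 10 longest coding genes wholly inside a stretch ran from 234 to 346 kb. The longest was Nfia, a transcription factor of glia and kidney (346 kb in a stretch of 541.8 kb). Macf1, a linker of microtubules and actin, filled 335 kb of a stretch of 342.8 kb. Sorbs2, an actin adaptor gene, measured 320 kb, Gria1, an AMPA glutamate receptor gene, 319 kb, and Ext1, a heparan sulfate polymerase gene, 282 kb. The remaining 5 were Chchd3, Prune2, Dtna, Smg6 and Etv6, at 269 kb for Chchd3 down to 234 kb for Etv6. In these genes no part of the body, from start to end, carried a peak.

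Start sites of coding genes inside stretches lay a median of 70.8 kb from the nearest peak, with quartiles of 37.6 and 101 kb, against a median of 9.43 kb over all autosomal coding genes. The distance is a consequence of the selection and is given for scale. The farthest were Srp54a, a subunit of the signal recognition particle, and 2700097O09Rik, both at 284 kb, followed by Vps39, a subunit of the vacuolar HOPS tethering complex, at 271 kb.

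The listed germ cell genes inside stretches each lay in a different stretch. Of 31 meiotic prophase genes, 4 lay inside (12.9%), of 34 spermatid genes 3 (8.82%), of 23 piRNA pathway genes 1 (4.35%) and of 25 spermatogonial genes 1 (4%). All coding genes stood at 6.61%. With lists this short, 1 gene more or less moves a share across that value in all but the meiotic list. The meiotic share rests on only 4 genes and was not tested against that of all coding genes, so it is not read as a difference. The median distance from start site to nearest peak was 10.7 kb for the meiotic list, 12.2 kb for the spermatid list, 19.2 kb for the piRNA list and 4.3 kb for the spermatogonial list, against 9.43 kb for all coding genes.

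The 4 meiotic genes inside were Prdm9, Sycp3, Hormad1 and Hormad2, whose promoter sequences for the first pair are printed above. Prdm9 (chromosome 17, 15543079 to 15564354) shared a stretch of 226.6 kb with Pdcd2, and its start lay 64 kb from the left edge and 163 kb from the right. Sycp3 (chromosome 10, 88459569 to 88473236) lay near the middle of 402.2 kb, with 210 and 192 kb to the edges. Hormad1 and Hormad2, HORMA domain proteins of unsynapsed chromosome axes, lay in stretches of 245.8 and 241.4 kb. Of these 4 starts, that of Prdm9 lay closest to a peak, at 64 kb.

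The spermatid genes inside were Tnp1, Odf1 and Tekt1. Tnp1, in 355.4 kb on chromosome 1, lay beside Igfbp2 and Igfbp5, genes of insulin-like growth factor binding proteins. Odf1, an outer dense fibre protein of the sperm tail, lay in 221.5 kb as the only whole coding gene, and Tekt1, a tektin of the sperm axoneme, in 275.5 kb. The piRNA gene inside was Tdrd12 (207.4 kb) and the spermatogonial gene Uchl1 (297.1 kb), the deubiquitinase used as a marker of spermatogonia.

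Of the somatic testis lists, 2 of 12 Leydig cell genes lay inside and 0 of 19 Sertoli cell genes did. The Leydig genes were Star, the carrier of cholesterol into mitochondria (257.4 kb), and Hsd17b3, the enzyme that makes testosterone (243 kb). Of the 11 linker histone genes none lay inside. Their median distance from start to nearest peak was 0.009 kb, against 9.43 kb for all coding genes. With 6.61% of all coding genes inside, lists this short would hold few or none, so these counts say little about any list.

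Several large families had shares near that of all coding genes. Odorant receptor genes named Olfr had 85 of 1399 inside (6.08%, in 13 stretches) and vomeronasal receptor genes 20 of 329 (6.08%, in 7 stretches). Zinc finger genes named Zfp had 28 of 407 (6.88%, in 25), solute carriers 30 of 366 (8.2%, in 25) and ribosomal protein genes 6 of 81 (7.41%, in 6). These shares stood close to the 6.61% of all coding genes. The Olfr list also holds pseudogenes, and of its 1128 coding members 60 lay inside. With a minimum of 300 kb its share was 3.57%, against 1.9% of coding genes and 3.1% of all genes, so it then lay above both. Cytochrome P450 genes had 1 of 131 inside, Cyp4f18 (0.763%). Of the 59 gene lists, 24 had no member inside, among them core histones (64 genes), clustered protocadherins (58), keratin-associated proteins (58), keratins (55) and bitter taste receptors (40). Some of the 24 were as short as 6 genes, and clustered families rest on few places in the genome. A count of 0 is therefore not read as avoidance.

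Clusters of immune receptor genes lay in a few stretches. Of 254 T cell receptor segments, the pieces joined to make receptors of T lymphocytes, 119 lay inside (46.9%), in 3 stretches on chromosome 14. All 60 Traj joining segments, with the constant genes Trac and Trdc, lay in a stretch of 200.5 kb at 54136309 to 54336847, which only just met the minimum and also held Dad1, a subunit of oligosaccharyltransferase, Abhd4 and Olfr49. The other 2 stretches, of 281.4 and 218.5 kb, held 57 of the 128 Trav variable segments. The beta chain locus had 0 of 35 Trbv segments inside. With a minimum of 300 kb no T cell receptor segment lay inside.

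By symbol prefix, immunoglobulin heavy chain variable segments with their pseudogenes had 31 of 185 inside (16.8%, in 2 stretches on chromosome 12). Kappa segments had 0 of 160. By annotated type over all immunoglobulin loci, variable segments had 20 of 218 inside (9.17%). Their pseudogenes had 14 of 158 (8.86%), against 10.1% of all genes. Killer cell lectin-like receptors, surface receptors of natural killer cells, had 12 of 30 inside (40%). Of these, 11 were Klra genes in a stretch of 429.6 kb on chromosome 6, out of 14 Klra genes in all. Of 12 Cd300 genes, leukocyte receptors for membrane lipids, 11 lay in a stretch of 288 kb on chromosome 11. All of these rest on 1 to 3 stretches each, so a peak more or less would change them.

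The stretch with the most coding genes, 332.4 kb at chromosome 2, 86317217 to 86649608, held 15 coding Olfr genes, Olfr1056 among them. A second, 303.8 kb on chromosome 9, held 13 Olfr genes and AW551984. A stretch of 260.8 kb on chromosome 14 held 14 coding genes, mainly of the ribonuclease A family, with Ang, the angiogenin gene, Rnase4, Rnase6, Rnase9 to Rnase12 and the eosinophil ribonuclease Ear14; Rnase9 to Rnase12 are known from the epididymis. By contrast 566.7 kb on chromosome 2 held 12 coding genes of unlike families, with Pla2g4d, Pla2g4e and Pla2g4f of cytosolic phospholipase A2, the muscle protease Capn3, Snap23 and Vps39. The last of the 5, 455.7 kb on chromosome 14, held 12 coding genes, with Duxbl1 to Duxbl3 and Cphx1 to Cphx3 of the homeobox class, Plac9a and Plac9b, and Tmem254a to Tmem254c.

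Smaller families lay in stretches too. Secretoglobin genes, small secreted proteins, had 16 of 69 inside (23.2%, in 4 stretches), and eosinophil ribonuclease genes named Ear 9 of 15 (60%, in 2). A cluster on chromosome 8 (278.4 kb) held 5 beta-defensin genes of 43 (11.6%), antimicrobial peptides of epithelia.

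MicroRNA genes lay inside in 298 of 2054 cases (14.5%), but 119 of these lay in a single stretch. That stretch, 315.6 kb at chromosome 2, 10213918 to 10529513, held 120 genes, the most of any. The body of Sfmbt2, a Polycomb group gene, took 50.4% of it. It held 71 genes with Mir symbols, 29 of the Mir669 family, 23 of Mir466, 14 of Mir467 and 5 of Mir297. Without it, 179 of 1935 microRNA genes lay inside (9.25%), against 10.1% of all genes.

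Genes with Mir symbols lay in 73 stretches, and 10 of these held at least 2. At chromosome 13, 63084830 to 63431375 (346.5 kb), Mir23b, Mir27b, Mir3074-1 and Mir24-1 lay with no whole coding gene. At chromosome 13, 48323122 to 48552161 (229 kb), Mirlet7a-1, Mirlet7d and Mirlet7f-1 lay with the coding genes Zfp169 and A830005F24Rik. Mir181a-1 and Mir181b-1 lay in 220.1 kb on chromosome 1, Mir708 in 586 kb on chromosome 7 and Mir21a in 379.4 kb on chromosome 11.

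Sequence shared with other genes was common in some of these clusters. For every gene 1 transcript was used, the longest coding transcript or, where there was none, the longest. The share of its 31-base words that also occur in the transcript used for a gene elsewhere was taken as a measure of near-identical copies. Introns, other transcripts and sequence outside annotated genes were not searched. Of 1375 coding genes inside, 124 (9.02%) shared at least 50% of their words, against 1317 of 20805 on the autosomes (6.33%). Put the other way, 9.42% of the high-sharing coding genes lay inside and 6.42% of the others. For unprocessed pseudogenes 56.8% inside shared at least 50%, against 36.7% on the autosomes, and for lincRNA genes 1.35% against 2.84%.

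Of 319 stretches with at least 2 coding genes, 21 had a median sharing of 50% or more among them. These 21 stretches held 107 coding genes, counted at any level of sharing. How many of the high-sharing coding genes inside lay in them was not counted. The stretch with Duxbl and Cphx genes had a coding median of 99.8%, the stretches of Vmn1r135 and Vmn1r151 on chromosome 7 had 100%, and both Trav stretches had medians over all genes of 100%. The stretch with Srp54a had 65.15% and the microRNA stretch at Sfmbt2 a median over all genes of 72.4%. The ribonuclease stretch had a coding median of 0.252%, and the stretches of Traj segments and of Capn3 had medians over all genes of 0. How reads from repeated sequence were placed is not given in the sources used here, and the part of shared sequence in the stretches was not tested.

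Coding genes inside began with slightly less GC-rich sequence. The first 250 bases of the longest coding transcript had a median GC content of 56% (quartiles 49.2 and 64) inside stretches and 58.4% (50.8 and 66.4) over the autosomes, with a median of 11 CG inside stretches and 12 CG over the autosomes. Of 1365 genes inside with a value, 565 (41.4%, 38.8 to 44.1) reached the autosomal median, against 50.3% of all. In the classes of GC content from 23.6 to 48.8% and from 68.8 to 88.4%, 7.83% and 5.24% of genes lay wholly inside, and 8.54% and 7.44% had their start inside. The classes between, in rising order of GC content, had 8.15%, 6.15% and 5.43% wholly inside and 9.48%, 7.45% and 7.54% by start sites. The share was therefore highest in the second class, and by start sites the 3 upper classes differed little. Median gene length was 32.4 kb in the highest class and 9.73 kb in the lowest, and its part in these shares was not tested. With only peaks above the median score, 48.3% of genes inside reached the autosomal median GC content.

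**Figure D3:**
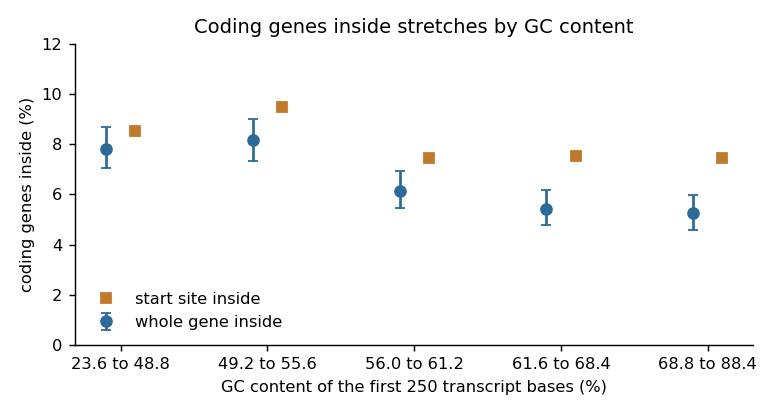
Share of coding genes inside stretches (vertical axis, %) in 5 classes of GC content of the first 250 transcript bases (horizontal axis, %). The second class is the highest by both measures. Circles with exact binomial 95% intervals count whole genes, and squares count start sites. Whole genes reached 7.83% in the lowest class and 5.24% in the highest, start sites 8.54% and 7.44%.

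Chromosomes differed in their share of stretches. Over the autosomes there were 42.3 stretches per 100 Mb. Chromosome 13 had 55.4 (65 stretches, 14.5% of its span) and chromosome 11 had 53.9 (64 stretches, 15.2%). Chromosome 16 had 29.5 (28 stretches, 7.66%), chromosome 4 had 30.7 (47, 8.52%) and chromosome 18 had 30.9 (27, 7.92%). Chromosomes 13 and 11 carried 26.8 and 28.1 peaks per Mb, against 30.2 over the autosomes, while chromosome 16 carried 30.1 and chromosome 4 carried 34. The median length of a stretch ran only from 232 kb on chromosome 15 to 261 kb on chromosome 2.

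**Figure D4:**
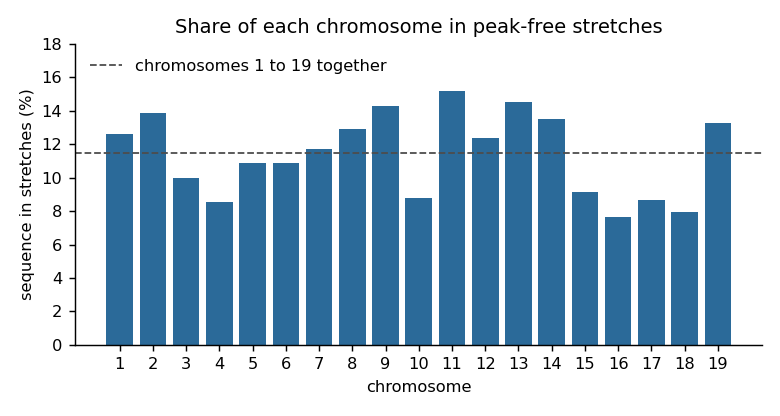
Share of each autosome lying in stretches (bars, % of the sequence between its first and last peak). The dashed line marks the autosomes together at 11.5%. Chromosome 11 (15.2%) is the highest and chromosome 16 (7.66%) the lowest.

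Coding genes followed the chromosomes unevenly. On chromosome 1 10.8% of coding genes lay inside, on chromosome 9 9.5% and on chromosome 14 9.09%, against 6.61% over the autosomes. On chromosomes 16, 17 and 15 the shares were 3.16%, 3.31% and 3.44%. Chromosome 13, with the most stretches per 100 Mb, had 6.32%. Stretches were sparser toward the ends of the span from first to last peak of each autosome. There were 25.3 per 100 Mb over the first 5 Mb of the spans and 31.6 over the last 5 Mb, against 42.3 over all autosomes.

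The peaks that ended stretches were ordinary or slightly weak. There were 1982 such peaks, with a median score of 71.01 (quartiles 57.78 and 102.28), against 73.82 (58.29 and 108.21) for all autosomal peaks. Of them 907 (45.8%, 43.6 to 48) scored above the autosomal median. Their median width was 660 bp, against 699 bp. In 50 cases 1 peak alone separated 2 stretches, and 25 of these separating peaks scored above the autosomal median.

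Peaks stayed sparse beyond the ends. In the first 20 kb outside the peak that ended a stretch there were 33.6 peaks per Mb, above the 30.2 per Mb of the autosomes. From 20 to 200 kb the density ran between 22.2 and 23.7, and from 200 to 400 kb it was 24.1. Of 2026 flanks of 200 kb, 114 (5.63%) held no peak, and the median was 4. Beyond a local rise beside the last peak, the flank density thus lay below the autosomal mean. Peak positions also chose the stretches, and the flanks were not cleared of other stretches. In 50 cases 1 peak alone separated neighbouring stretches, so the flank beyond it lay in another stretch and held no peak by the rule. The low flank density is therefore partly a consequence of the selection. Whether flanks without other stretches also hold fewer peaks was not tested.

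**Figure D5:**
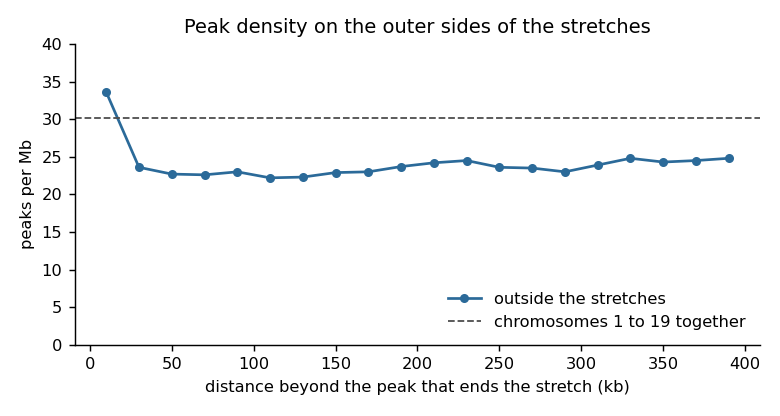
Peaks per Mb (vertical axis) by distance in kb outside the peak that ends a stretch (horizontal axis, bins of 20 kb, both sides of all stretches). The density is 33.6 in the first bin and between 22.2 and 24.8 in the others, and the dashed line marks the autosomes at 30.2.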

How the data were processed

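The peak list of 1 H1t library was used as the authors deposited it. It gives the position, name and score of 76546 peaks, of which 72438 lie on chromosomes 1 to 19. The deposited score, from 50 to 3100, has no stated scale and was used only within this list. The submitters' processing notes name Bowtie 1.1.2 and the build mm10. What called the peaks, at which threshold, and how repeated sequence was handled is not given in the sources used here. Read depth is unknown.

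Gaps were measured from the end of 1 peak to the start of the next. A gene counted as inside when its whole GENCODE M21 span lay in the gap. Chromosome spans ran from first to last peak. Intervals are exact (Clopper-Pearson) 95% binomial intervals and cover counting error only. The named stretches were the 10 longest, the 5 with most coding genes, the 5 with most genes and the 3 nearest the minimum on each side, with up to 5 of their longest coding genes, besides the 10 longest coding genes inside, every gene list with a member inside and the 10 leading symbol stems. Not all of these are printed, some genes and lists the rule takes are not reported here, and the stems Gm, AC and A, predicted or clone names, are not described.

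Members and gene lists were chosen with earlier results of these data known. Counts by symbol prefix (Traj, Trav, Klra, Cd300, Ear, Ighv), host genes, flanks, chromosomes set side by side, shared 31-base words and the printed promoters and microRNAs were chosen after their values were seen. The promoter table held 76.3% of coding genes inside and 75.5% of all, under 80%, so a promoter check was void. GC content was therefore taken over the first 250 bases of the longest coding transcript, present for 99.2% of coding genes inside and 99.5% of all. No genome sequence was used, so unresolved bases, repeats and copy number of stretches were not computed. On simulated peaks the procedure recovered 40 of 40 planted stretches and 301 of 301 genes in them. The planted stretches were cleared of peaks, ended by a peak on each side and longer than the minimum. The result therefore checks the computation only, and not missed weak peaks or depth. Alternatives covered the minimum length, the score, the genes counted and the chromosomes. Tables were made in Python 3.11.15 with pandas 2.3.3, numpy 2.4.6 and scipy 1.17.1, and plots with matplotlib 3.10.9.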

Additional observations from a re-analysis of the deposited data

Results flagged for a closer look

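The deposited list also held peaks outside chromosomes 1 to 19, on which the autosomal stretches of the report do not rest: 112 on unplaced and unlocalised scaffolds, 3513 on X and 483 on Y. The scaffold peaks entered no comparison. Those on X and Y entered the alternative that adds both chromosomes and the values under the other observations. No level expected on any of these was measured, and the cause of these peaks was not tested.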

How the results depend on the processing

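The number of stretches was 2093 with a minimum of 150 kb, 248 with 300 kb, 23 with 500 kb, 2693 with only peaks above the median score and 518 where a whole coding gene was required, against 1016 as reported. The coding share of genes inside (26.6%) was 27.9, 24.9 and 28.9% at minimum lengths of 150, 300 and 500 kb, 35.7% with peaks above the median score, 28.8% without the weakest 10% of peaks, 40.2% where a coding gene was required (by construction), 30.3% counted by start sites and 64.5% without predicted genes, where the autosomal share was 77.4%. It lay below the autosomal 40.6% in each of these but the last, whose own autosomal share it lay below. The share of genes over the share of sequence inside (0.876) was 0.903, 0.792 and 0.656 at 150, 300 and 500 kb, 0.91 without the weakest 10%, 0.995 with peaks above the median score and 1.13 where a coding gene was required, which adds genes by construction. Coding genes reaching the median GC content (41.4%) were 38.2% at 300 kb, 35.7% at 500 kb and 48.3% with peaks above the median score. Peaks at stretch ends above the median score (45.8%) were 37% at 500 kb. Of 93 alternative values, 38 stayed close to the reported one. Close meant inside its exact binomial interval or, for the number of stretches and the chromosome ratios, within 1.5 times of it. The cause of the other values was not tested. Some of the 38 could not change, such as the GC share where a coding gene was required and the odorant receptor share without predicted genes. The count of 38 is therefore no measure of stability. The ratio of chromosome 13 to all autosomes, 1.31 as reported, was 1.25 at 150 kb and 1.16 at 300 kb. For chromosome 16 it was 0.696 as reported, 0.76 at 150 kb and 0.611 at 300 kb. These were the highest and lowest chromosomes of these same data. A range of 1.5 times around either ratio includes equality with all autosomes, so closeness by that rule says little about them.

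T cell receptor segments inside, 46.9% as reported, ran from 0 (at 300 and 500 kb) to 57.9% (peaks above the median score), while the share of all genes inside ran from 0.379% at 500 kb to 36.5% with peaks above the median score. No paired analysis was possible because the series has 1 library with a peak list. An alternative that leaves unresolved bases out of each length was not run, since it needs a genome sequence. Without depth and input, a missing weak peak cannot be told apart from background.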

Other observations

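Stretches defined in the same way took more of the sex chromosomes than of the autosomes. There were 21 peaks per Mb on X and 5.33 on Y, against 30.2 on the autosomes. On X there were 153 stretches (91.4 per 100 Mb), which took 28.4% of the sequence between first and last peak and held 372 of 948 coding genes (39.2%). The longest ran for 1.25 Mb. On Y there were 101 (112 per 100 Mb) with a median length of 447 kb, which took 81.9% of that sequence and held 128 of 183 coding genes (69.9%). The longest ran for 3.81 Mb, from 73319724 to 77131135, with 60 genes, 7 of them coding and all 7 with predicted (Gm) symbols. On the autosomes the stretches took 11.5% of the sequence and 6.61% of the coding genes. Read depth is unknown and sequence copy number was not computed. The part of these, and of the dose of X and Y in male cells, in the stretches on X and Y was not tested.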
